A study of Mus musculus with 15 samples.

Results

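The genes described here are those of vesicle fusion and exocytosis: syntaxins, syntaxin binding proteins, VAMPs, the SNAP-25 family, synaptotagmins, complexins, the secretory GTPases Rab3 and Rab27, NSF with its attachment proteins, and PACSINs. They were chosen by gene symbol from the authors' table of probes present in the mouse samples, with 1 probe per gene, the one with the highest mean over the 15 arrays. This gave 52 genes of 15059 gene symbols in that table, through 73 probes, and 17 of the 52 genes had more than 1 probe. A further 17 genes of these families, among them Syt1, Syt2, Cplx3 and Stx19, had probes on the array and none in that table.

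The measurements were made in cumulus cells, the somatic cells around the oocyte, of B6CBAF1/J mice, at 3 stages with 5 arrays each, every array holding the cells of a group of several animals. NC1 cells came from 3-week-old juveniles, with unexpanded complexes punctured from large ovarian follicles. The NC1 oocytes were in prophase I and were developmentally incompetent or poorly competent. C1 cells were taken in the same way from adults aged 8 weeks, with oocytes likewise in prophase I and developmentally competent. The C2 stage used adults of 8 weeks that had been given pregnant mare serum gonadotropin and then hCG, and here the complexes were expanded, were flushed from the oviduct and held fully competent oocytes in metaphase II. Cells of NC1 and C1 were detached by pipetting and those of C2 with hyaluronidase. Age and stage cannot be told apart between NC1 and C1, nor can hormone treatment, site of collection, enzyme and stage between C1 and C2.

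Membrane fusion in the secretory pathway is driven by SNARE proteins. A SNARE on the vesicle (a VAMP) zips up with a syntaxin and a SNAP-25-type protein on the target membrane, and the tight bundle draws the membranes together. Syntaxin binding proteins of the Munc18 family hold syntaxins ready, Rab3 and Rab27 bring secretory vesicles to the membrane, synaptotagmins couple the step to calcium and complexins clamp the partly assembled bundle. NSF and its attachment proteins pull used bundles apart. Cumulus cells secrete growth factors and the hyaluronan-binding proteins of the expanding matrix, and the matrix is laid down after the ovulatory signal.

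The sequences upstream of the starts of 7 members are shown so that genes that moved in opposite directions can be set side by side: the levels of Stx1a, Stx3, Stx11, Stxbp2 and Rab3d were highest at C2, and those of Rab3b and Syt11 lowest. Each run is the 250 bases before the annotated start, taken from the RefSeq promoter table of assembly GRCm38.p6, 5′ to 3′ on the gene's own strand. Capitals mark matches, on either strand, to the letters of any motif searched. The GC box was searched as GGGCGG. The short form of the cyclic AMP response element was searched as TGACG, and its full form, which contains the short one, as TGACGTCA. The TATA box was searched as TATAAA. The AP-1 site was searched as TGANTCA, where N is any base. The site of the ovarian factor SF-1 was searched as CAAGGTCA, and an arm of the RE1 element of neuronal genes as TTCAGCACC.
Stx1a, chr5:135023232-135023481, + strand: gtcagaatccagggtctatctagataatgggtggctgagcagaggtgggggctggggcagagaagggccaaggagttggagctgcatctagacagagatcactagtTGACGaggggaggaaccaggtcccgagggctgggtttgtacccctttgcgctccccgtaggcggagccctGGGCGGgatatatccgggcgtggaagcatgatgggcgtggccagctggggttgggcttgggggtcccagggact
Stx3, chr19:11819404-11819653, - strand: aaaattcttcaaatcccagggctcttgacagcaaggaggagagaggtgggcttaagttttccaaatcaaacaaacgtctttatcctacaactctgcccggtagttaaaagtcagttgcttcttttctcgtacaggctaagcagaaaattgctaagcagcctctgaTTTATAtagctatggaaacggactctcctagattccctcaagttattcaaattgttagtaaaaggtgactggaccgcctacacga
Stx11, chr10:12964260-12964509, - strand: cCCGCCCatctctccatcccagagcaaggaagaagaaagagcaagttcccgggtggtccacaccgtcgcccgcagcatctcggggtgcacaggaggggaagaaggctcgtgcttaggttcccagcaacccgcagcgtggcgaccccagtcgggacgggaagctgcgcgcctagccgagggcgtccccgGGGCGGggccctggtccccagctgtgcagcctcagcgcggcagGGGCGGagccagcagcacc
Stxbp2, chr8:3630859-3631108, + strand: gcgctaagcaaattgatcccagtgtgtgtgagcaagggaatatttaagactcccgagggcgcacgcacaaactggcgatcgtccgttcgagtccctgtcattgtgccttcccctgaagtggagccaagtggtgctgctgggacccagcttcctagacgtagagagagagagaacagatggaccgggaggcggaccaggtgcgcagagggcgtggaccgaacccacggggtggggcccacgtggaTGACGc
Rab3d, chr9:21918184-21918433, - strand: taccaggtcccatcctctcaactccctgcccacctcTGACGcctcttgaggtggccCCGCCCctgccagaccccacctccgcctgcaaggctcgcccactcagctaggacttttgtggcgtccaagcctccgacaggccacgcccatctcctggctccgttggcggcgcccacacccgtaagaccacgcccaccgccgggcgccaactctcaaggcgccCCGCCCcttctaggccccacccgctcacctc
Rab3b, chr4:108878820-108879069, + strand: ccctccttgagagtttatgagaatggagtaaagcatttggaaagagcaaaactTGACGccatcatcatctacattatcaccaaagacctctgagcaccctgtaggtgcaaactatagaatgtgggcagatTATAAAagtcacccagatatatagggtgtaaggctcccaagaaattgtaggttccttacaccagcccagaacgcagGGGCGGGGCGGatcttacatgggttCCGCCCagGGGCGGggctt
Syt11, chr3:88772600-88772849, - strand: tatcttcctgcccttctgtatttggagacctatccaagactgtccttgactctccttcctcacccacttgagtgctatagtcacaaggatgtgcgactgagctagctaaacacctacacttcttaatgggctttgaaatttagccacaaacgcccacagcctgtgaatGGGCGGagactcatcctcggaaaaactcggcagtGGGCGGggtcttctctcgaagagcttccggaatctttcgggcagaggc

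A window was found for 39 of the 52 members, 51 windows in all because some genes have several starts. The full cyclic AMP element was in 0 of the 51 windows and in 1.55% of the 32851 windows of the whole table, and its short form was in 13 of 51 against 17.8% of the table. GC boxes were in 31 of 51 windows against 32.7%, TATAAA in 3 of 51 against 12.4%, the AP-1 letters in 1 of 51 against 6.75%, the SF-1 letters in 2 of 51 against 1.33% and the RE1 arm in 0 of 51 against 0.301%. Both windows with the SF-1 letters belong to Syt6 and share most of their bases. Among the 7 windows printed, Rab3b held TATAAA on the gene's own strand and Stx3 on the opposite strand. Stx3 and Stxbp2 had no GC box. Stx11, Rab3d, Rab3b and Syt11 each held at least 2 GC boxes, which in Rab3b overlap in part. These are matches of letters and were not tested for a role.

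Levels below are log2 intensities from which the median over that array's valid probes was taken away, so that a level of 0 is the middle of the detected transcripts and a difference of 1 is a 2-fold change. A probe was valid, and was tested, when the scanner software marked it well above background on at least 4 of the 5 arrays of every stage. By that rule 44 of the 52 members were tested, among 17323 valid probes. The remaining 8, among them Cplx1, Rab27a, Stx11, Stxbp4, Syt5, Syt6 and Syt7, were dim in at least 1 stage. A member was called when limma's adjusted p, over all valid probes, was below 0.01. On each NC1 array 48 to 49 of the 52 were well above background, with 45 to 52 on each C1 array and 47 to 51 on each C2 array. Levels in a pool of cells cannot tell fewer cells of a type from less RNA per cell.

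Labels were checked against marker genes. All 10 granulosa and cumulus markers, Foxl2 and Inha among them, were well above background on every array, and 9 of the 10 were lower at C2 than at C1. The 4 markers of the expanded cumulus (Has2, Ptx3, Tnfaip6, Ptgs2) had a summed level, in multiples of the array median, of 0.21 to 0.297 at NC1 and of 18.6 to 32.9 at C2. At C1 it was 0.165 to 0.393 on 4 arrays and 8.69 on replicate 4, where all 4 markers were detected, so that this array stands apart. Oocyte markers had a summed level of 14.2 to 54.6 at NC1, of 14.2 to 44.8 at C1, and at C2 of 14.7 to 18.3 on replicates 1 to 3 and of 0.778 and 0.875 on replicates 4 and 5. The summed level of 5 theca and stroma markers was 9.15 to 49.9 over NC1 and C1 and 0.474 to 0.711 at C2. Hemoglobin and other red cell markers summed to 73.5 to 438 at NC1, and to 9.92 to 43.5 over C1 and C2. Of 7 leukocyte markers, 4 to 7 were detected per array, with sums of 2.92 to 5.88 at NC1, 3.45 to 4.87 at C1 and 5.55 to 7.26 at C2. The sums of the oviduct epithelium markers were 0.522 to 2.59 over NC1 and C1 and 0.981 to 8.75 at C2. Of the 5 genes of that list, Ovgp1 was higher at C2 than at C1 by 2.28 (adjusted p = 0.0343) and than at NC1 by 3.32 (adjusted p = 0.00347), Epcam changed by -1.05 and Tppp3 by -1.01 from C1 to C2 (adjusted p = 0.000934 and 0.00245), Foxj1 was detected on 3, 1 and 3 arrays and Pax8 on none. Endothelial markers summed to 0.617 to 0.93 over NC1 and C1 and to 0.951 to 1.7 at C2. The part of these cells in the results below was not tested.

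From C1 to C2 more of the fusion genes rose than fell. Of the 44 tested members 27 were called, 23 of them higher at C2 and 4 lower, where 47.6% of all valid probes were called, 25.4% higher and 22.2% lower. The median change of the members was 0.46 on the log2 scale and that of all valid probes was 0.02. At least 2-fold changes were fewer, with 10 members against 21.3% of all probes. The arrays of C1 and C2 did not overlap for 27 members, against 43.9% of all probes. All 27 called members moved in the called direction within each of the 4 slides, every slide holding arrays of the 3 stages. Where the C1 and C2 arrays of a member did not overlap, that direction was fixed in advance, so this is no separate check. With the arrays scaled on the spike-in probes, only 9 of the 44 members were called, 5 higher (Stx3, Rab3d, Stxbp2, Snap29 and Stxbp3a) and 4 lower (Syt13, Rab3b, Rab27b and Syt11), against 25.3% of all probes, whose median change was then -0.13. With the median over all gene probes, the members' median change was 0.77 and that of all valid probes 0.33.

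**Figure D1:**
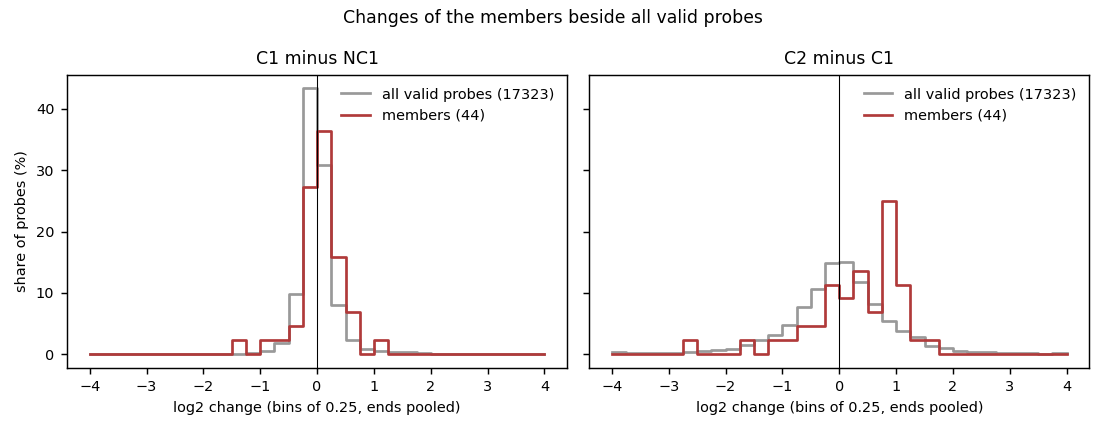
Share of probes (%) in bins of 0.25 of log2 change, for C1 minus NC1 (left) and C2 minus C1 (right), with the 44 tested members in red and the 17323 valid probes in grey. From C1 to C2 the members centre on a median of 0.46 and all probes on 0.02.

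Between NC1 and C1, the stages that differ in age and in the competence of the oocyte, few members changed. The C1 arrays are those of the comparison above. Only Rab3a (higher) and Syt13 (lower) were called, 2 of 44 against 2.52% of all valid probes, and the median change of the members was 0.07. Over C2 against NC1, which shares arrays with both, 29 of 44 members were called, 25 higher and 4 lower, against 51.5% of all probes. The F-test over the 3 stages called 28 of 44 members and 51.6% of all probes.

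**Figure D2:**
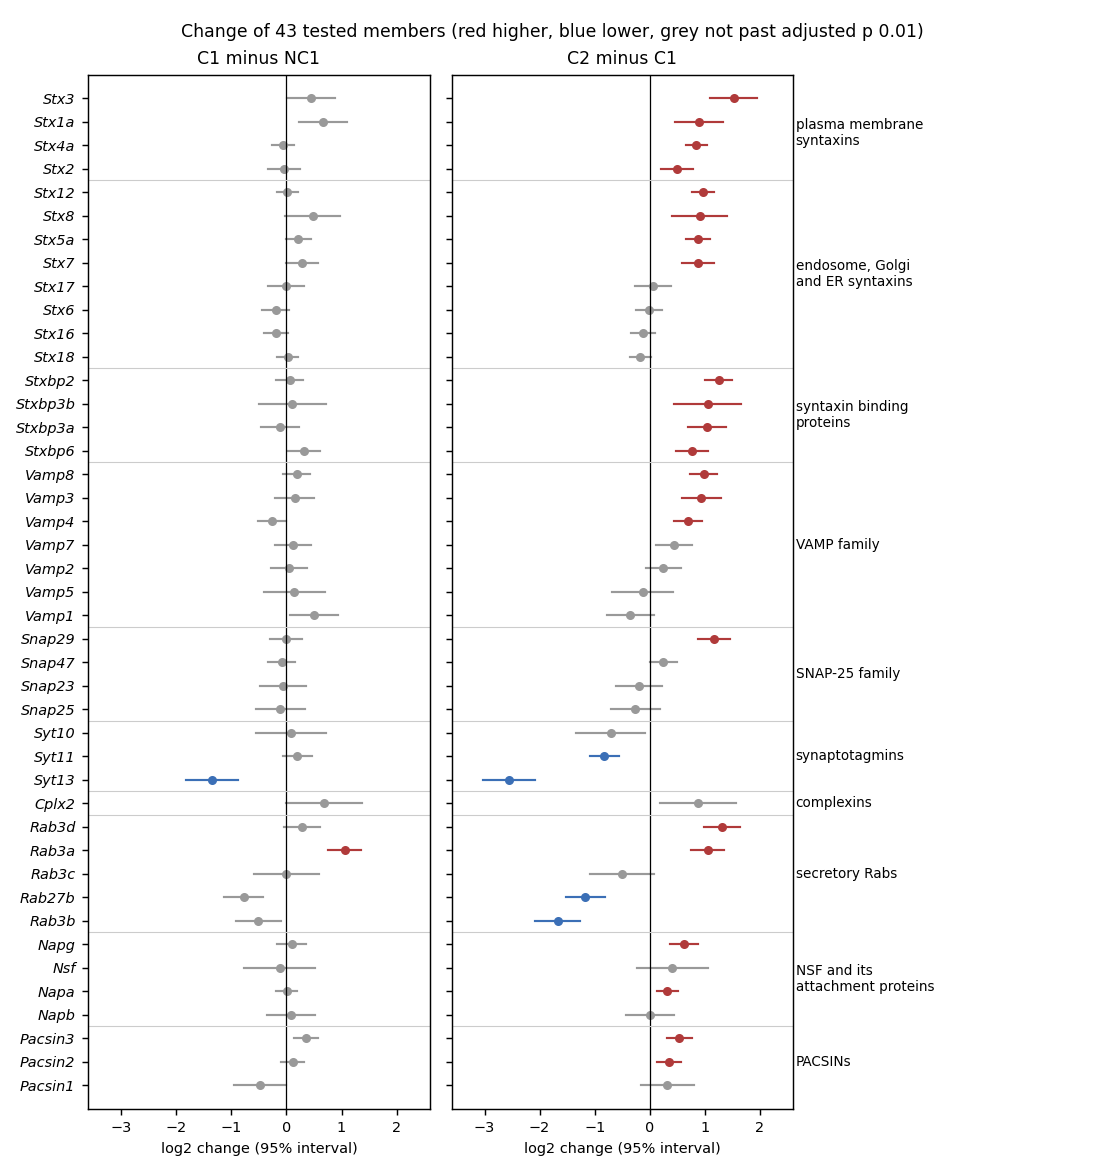
Log2 change with its 95% interval for each of 43 tested members, grouped by role, for C1 minus NC1 (left) and C2 minus C1 (right). Red marks called members that were higher, blue those that were lower and grey those not called. In the right panel 22 members are red and 4 are blue, and in the left panel 1 of each.

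All 4 tested plasma membrane syntaxins rose from C1 to C2, with a median change of 0.87, where 25.4% of all valid probes were higher. With spike-in scaling Stx3 alone of the 4 was called, the adjusted p being 0.0461 for Stx4a and 0.38 for Stx2. Stx1a, the syntaxin of the synapse, stood at -2.95, -2.96, -4.01, -3.28 and -3.45 on the NC1 arrays, at -2.40, -2.54, -2.48, -3.22 and -2.71 on the C1 arrays and at -1.92, -1.68, -1.33, -1.95 and -1.99 on the C2 arrays. All C2 arrays lay above all C1 arrays, while C1 replicate 4 fell among the NC1 arrays. The rise from C1 to C2 was 0.90 ± 0.21 (SE) on the log2 scale (1.86-fold, adjusted p = 0.00129), and the step from NC1 to C1, 0.66 ± 0.21 (SE), did not pass (adjusted p = 0.0829). With spike-in scaling the rise from C1 to C2 was 0.75 (adjusted p = 0.0326).

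Stx3, a syntaxin of apical membranes and granules, showed the steepest rise among the tested members. Its levels were -1.05, -1.38, -1.43, -1.53 and -1.37 at NC1, then -1.08, -1.28, -1.07, 0.10 and -1.20 at C1, and 0.51, 0.52, 0.69, 0.71 and 0.66 at C2. Replicate 4 of C1, the array with expanded-cumulus transcripts, stood well above the other C1 arrays and still below every C2 array. The change from C1 to C2 was 1.53 ± 0.20 (SE), or 2.88-fold (adjusted p = 6.71e-06), and it was 1.77 (adjusted p = 2.11e-09) without that array. Stx4a (now Stx4), which serves regulated delivery of transporters to the surface, rose from 3.38 ± 0.15 at C1 to 4.23 ± 0.08 at C2 (SD, n = 5, adjusted p = 7.04e-07). Stx2, found on many plasma membranes, was at -1.18, -1.84, -1.16, -1.08 and -1.59 at NC1, at -1.37, -1.59, -1.39, -1.22 and -1.47 at C1 and at -1.03, -0.84, -0.90, -0.998 and -0.80 at C2. It rose from -1.41 ± 0.14 to -0.91 ± 0.10 (adjusted p = 0.00515), a call that was lost without each of C1 replicates 2 and 5 and each of C2 replicates 2, 3 and 5.

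Stx11, a syntaxin best known from the granules of cytotoxic lymphocytes, went from not detected to clearly detected. It was at -6.63, -6.70, -6.94, -6.59 and -7.30 on the NC1 arrays, none of them well above background. The C1 arrays gave -5.25, -4.36, -4.51, -3.93 and -3.46, of which only replicates 4 and 5 were well above background. Expanded-cumulus markers summed to 8.69 on C1 replicate 4 and to 0.194 on C1 replicate 5, and their part was not tested. The C2 arrays gave -0.63, -1.03, -0.77, -0.82 and -0.92, all well above background. The fold of C2 over NC1 was at least 14.8, taking for each NC1 array the lowest signal among detected probes. Markers of leukocytes, which are known to use Stx11, summed to 3.45 to 4.87 at C1 and 5.55 to 7.26 at C2, and their part was not tested.

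**Figure D3:**
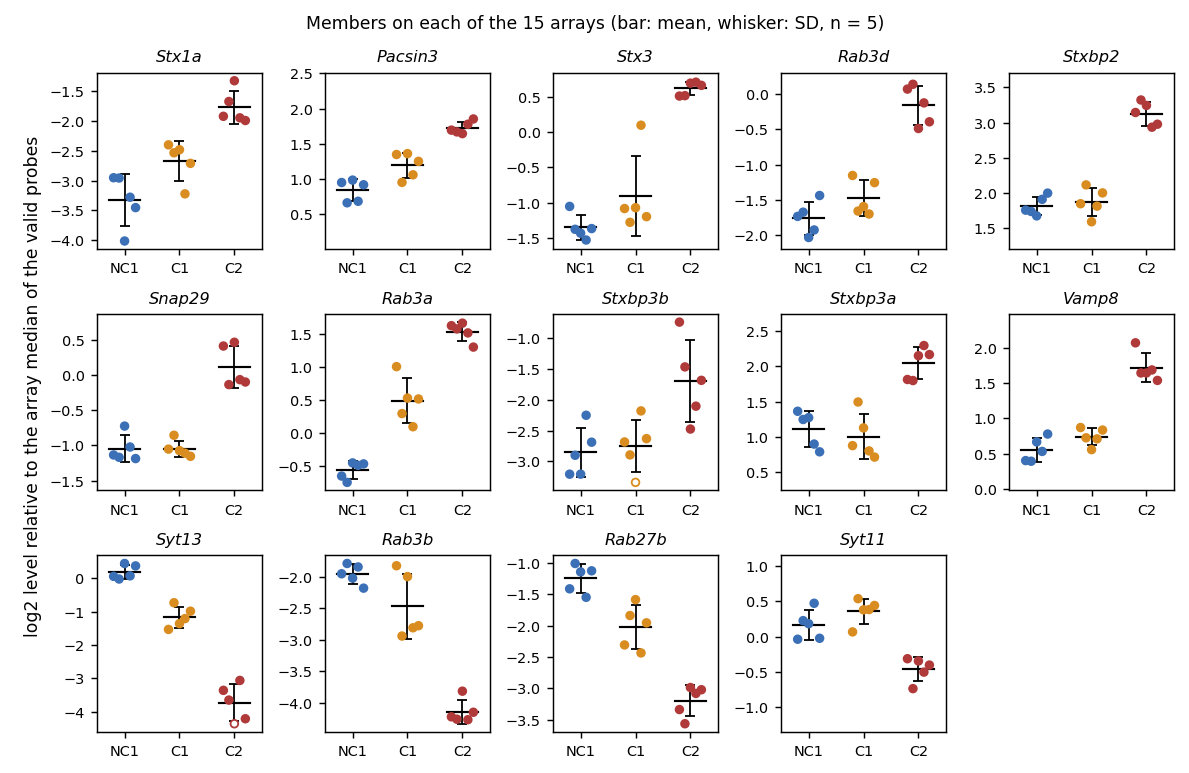
Levels of 14 members on the 15 arrays (vertical axis: log2 level above or below the array's median; horizontal axis: stage). Points are arrays, filled where well above background and open otherwise, and bars and whiskers are the mean and SD of 5 arrays. Stx1a and Pacsin3 come first, then the 8 steepest rises among tested members called from C1 to C2, and the lowest row holds the 4 tested members called lower, with changes of -2.56 for Syt13, -1.67 for Rab3b, -1.17 for Rab27b and -0.82 for Syt11.

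Syntaxins of endosomes, the Golgi and the ER were divided, with 4 of 8 higher at C2 than at C1 and none lower. Of all valid probes 25.4% were higher and 22.2% lower. Stx12 of recycling endosomes rose from 0.71 ± 0.12 to 1.67 ± 0.06 (adjusted p = 1.57e-07). Stx7, of late endosomes, rose from -0.36 ± 0.29 to 0.51 ± 0.20 (adjusted p = 4.44e-05), and its partner Stx8 from -1.27 ± 0.13 to -0.36 ± 0.19 (adjusted p = 0.00333). The Stx8 call was lost without C2 replicate 1, without C1 replicates 3 and 4 together, with spike-in scaling and with no filter on dim probes. Stx5a (now Stx5), which works between the ER and the Golgi, rose from 3.68 ± 0.18 to 4.56 ± 0.09 (adjusted p = 1.94e-06). The others did not pass on their brightest probe. Stx17 of autophagosomes had means of -1.92, -1.92 and -1.86 over the 3 stages, while another of its probes was higher at C2 than at C1 by 0.49 (adjusted p = 0.00291). Stx6 had means of -0.09, -0.29 and -0.30, Stx16 of -1.40, -1.59 and -1.71, and Stx18 of 0.94, 0.96 and 0.79. For Stx18, an ER syntaxin, the 95% interval of the change from C1 to C2 ran from -0.36 to 0.02.

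The 5 tested syntaxin binding proteins rose from C1 to C2, with a median change of 1.04, where 25.4% of all valid probes were higher. Of the 5, Stxbp2 and Stxbp3a were called with spike-in scaling. Stxbp2, the Munc18 protein of epithelial and blood cells and a partner of Stx3 and Stx11, was at 1.76, 1.74, 1.68, 1.91 and 2.00 at NC1, at 1.85, 2.12, 1.59, 1.81 and 2.00 at C1 and at 3.14, 3.32, 3.24, 2.93 and 2.98 at C2. The NC1 and C1 arrays overlapped and every C2 array lay above both. The rise from C1 to C2 was 1.25 ± 0.12 (SE), 2.38-fold (adjusted p = 1.19e-07), whereas its other, dimmer probe changed by 0.18 (adjusted p = 0.523).

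Stxbp3a (now Stxbp3), the partner of Stx4, stood at 1.36, 1.25, 1.27, 0.90 and 0.79 at NC1, at 0.88, 1.49, 1.13, 0.80 and 0.71 at C1 and at 1.81, 1.80, 2.15, 2.30 and 2.17 at C2. Again only C2 lay apart, by 1.04 ± 0.16 (SE) over C1 (adjusted p = 3.59e-05), and the other tested probe of the gene gave 0.96 (adjusted p = 5.68e-05). Stxbp3b is listed as a pseudogene of Stxbp3 in the RefSeq table, and its probe may share signal with the parent gene. It read -3.21, -2.90, -3.21, -2.25 and -2.69 at NC1, -2.68, -2.90, -3.34, -2.18 and -2.63 at C1, where replicate 3 was not well above background, and -0.74, -1.47, -2.48, -2.10 and -1.68 at C2. The C1 and C2 arrays overlapped, and the change of 1.05 ± 0.29 (SE, adjusted p = 0.00462) lost its call without C1 replicate 3 and without each of C2 replicates 1, 2 and 5. Stxbp6 (amisyn), which resembles a VAMP without a membrane anchor, rose from 0.11 ± 0.24 to 0.89 ± 0.07 (adjusted p = 0.000133). Stxbp4, a partner of Stx4, was not tested and had means of -3.80, -4.20 and -4.47 over NC1, C1 and C2, detected on 5, 3 and 3 arrays.

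In the VAMP family 3 of 7 members rose from C1 to C2, where 25.4% of all valid probes were higher. Vamp8, the vesicle SNARE of endosomes and of many non-neuronal granules, was at 0.40, 0.39, 0.67, 0.53 and 0.78 at NC1, at 0.87, 0.72, 0.56, 0.71 and 0.83 at C1 and at 2.07, 1.64, 1.64, 1.69 and 1.54 at C2. The C2 arrays lay above all others, by 0.98 ± 0.12 (SE) over C1 (1.97-fold, adjusted p = 1.94e-06). Vamp3 (cellubrevin), which recycles to the plasma membrane, rose from -2.97 ± 0.21 to -2.03 ± 0.19 (adjusted p = 0.000163). Vamp4 of the trans-Golgi network rose from -0.32 ± 0.15 to 0.38 ± 0.22 (adjusted p = 0.000104) on its brighter probe, while its other probe gave -0.50 (adjusted p = 0.0147), so the direction for this gene rests on the probe. The synaptobrevins did not pass: Vamp1 had means of -3.47, -2.97 and -3.32 and Vamp2 of -0.80, -0.75 and -0.50 over the 3 stages. Vamp5 was at 0.60, 0.75 and 0.62, and Vamp7, a late endosome SNARE, went from -0.42 ± 0.17 at C1 to 0.01 ± 0.37 at C2 (adjusted p = 0.0237).

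In the SNAP-25 family only Snap29, of endosomes and autophagosomes, was called from C1 to C2, where 47.6% of all valid probes were called. It was at -1.13, -1.17, -0.73, -1.02 and -1.19 at NC1, at -1.05, -0.86, -1.07, -1.11 and -1.15 at C1 and at 0.41, -0.14, 0.46, -0.07 and -0.10 at C2. NC1 and C1 had the same mean to 2 decimals (-1.05) and the rise at C2 was 1.16 ± 0.14 (SE), 2.24-fold (adjusted p = 1.71e-06), with 0.80 (adjusted p = 1.60e-05) on its other probe. Snap25, the synaptic member, had means of 1.35, 1.24 and 0.98, and Snap47 of 0.83, 0.74 and 0.99 over NC1, C1 and C2. Snap23, the member found in most tissues, did not pass on its brighter probe (0.47, 0.41 and 0.21) and was higher by 0.60 at C2 on the other (adjusted p = 0.00686), so its probes disagree.

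Secretory Rabs, which carry vesicles to the plasma membrane, went both ways. Rab3a, the Rab of synaptic vesicles, rose at each step. Its levels were -0.66, -0.75, -0.46, -0.50 and -0.47 at NC1, then 1.01, 0.29, 0.53, 0.09 and 0.52 at C1, and 1.63, 1.58, 1.67, 1.52 and 1.30 at C2, with no overlap between any of the stages. The steps were 1.06 ± 0.14 (SE, adjusted p = 0.000205) and 1.05 ± 0.14 (SE, adjusted p = 8.07e-06), or 2.08-fold each, and they share the C1 arrays. The rise from NC1 to C1 stayed called under all 33 other settings, and that from C1 to C2 was lost with spike-in scaling (0.90, adjusted p = 0.0125).

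Rab3d, known from exocrine granules, stood at -1.74, -1.68, -2.04, -1.93 and -1.44 at NC1, at -1.16, -1.66, -1.60, -1.70 and -1.26 at C1 and at 0.07, 0.14, -0.49, -0.13 and -0.39 at C2. Its C2 arrays lay apart, 1.31 ± 0.16 (SE) above C1 (2.49-fold, adjusted p = 1.85e-06). Rab3b, a close relative of Rab3a, ran the opposite way, with -1.95, -1.79, -2.02, -1.84 and -2.18 at NC1, -1.83, -2.94, -2.00, -2.81 and -2.78 at C1 and -4.22, -4.26, -3.81, -4.27 and -4.15 at C2. The C1 arrays were spread over more than the NC1 range, and C2 was lower than C1 by 3.18-fold, a log2 change of -1.67 ± 0.19 (SE, adjusted p = 1.45e-06). Rab27b, which docks secretory granules, was at -1.41, -1.01, -1.14, -1.55 and -1.13 at NC1, at -2.31, -1.84, -1.59, -2.44 and -1.96 at C1 and at -3.34, -3.57, -2.99, -3.08 and -3.02 at C2. The stages did not overlap, a state that 5.98% of all valid probes shared for NC1 and C1. The fall from C1 to C2 was called (-1.17 ± 0.17, SE, adjusted p = 1.40e-05), and that from NC1 to C1 (-0.78 ± 0.17, SE) missed the threshold at an adjusted p of 0.0102. That fall was called under 10 of the 33 other settings, the replicate block, quantile normalization and array weights among them, and its adjusted p ran from 0.00336 to 0.357.

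Rab3c had means of 2.22, 2.22 and 1.72 and did not pass. Rab27a, the close relative of Rab27b, was well above background on 0 arrays of NC1, 3 of C1 and 4 of C2, with means of -5.38, -3.65 and -3.26, and its fold of C2 over NC1 was at least 2.66, with the gene measured on 4 of 5 C2 arrays. C2 replicates differed widely for this gene (SD 1.57).

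Of the 3 tested synaptotagmins 2 fell from C1 to C2 and none rose, where 22.2% of all valid probes were lower and 25.4% higher. Syt13, a member that does not bind calcium, was at 0.06, -0.02, 0.44, 0.07 and 0.37 at NC1, at -1.53, -0.73, -1.36, -1.21 and -0.99 at C1 and at -3.36, -3.65, -4.36, -3.06 and -4.21 at C2, where replicate 3 was not well above background. The stages were separated at both steps, by -1.35 ± 0.22 (SE, adjusted p = 0.00117) and by -2.56 ± 0.22 (SE, adjusted p = 5.22e-08). From NC1 to C2 the change was -3.91, or -3.00 with normexp background correction. The step from NC1 to C1 lost its call with spike-in scaling (-1.19, adjusted p = 0.0132) and without C1 replicates 3 and 4 together (-1.26, adjusted p = 0.0121). Syt11, also a synaptotagmin without calcium binding, was at -0.04, 0.23, 0.18, 0.47 and -0.02 at NC1, at 0.07, 0.54, 0.38, 0.38 and 0.44 at C1 and at -0.31, -0.74, -0.35, -0.50 and -0.40 at C2. Here C1 overlapped NC1, and all C2 arrays lay lower than C1, by -0.82 ± 0.12 (SE, adjusted p = 2.54e-05). With the median over all gene probes as the scale this fall was not called. Syt10 had means of 1.87, 1.96 and 1.25, a difference from C1 to C2 with an adjusted p of 0.0505.

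Syt7, the high-affinity calcium sensor of lysosomes and granules, was detected at NC1 and C1 and not at C2. Its levels were -2.29, -2.61, -2.09, -1.83 and -1.83 at NC1 and -2.33, -2.11, -2.64, -2.10 and -2.22 at C1, all well above background. On the C2 arrays it read -5.87, -6.09, -6.14, -5.10 and -6.46, none well above background. C1 was therefore at least 5.7-fold and NC1 at least 6.33-fold above C2, and the other Syt7 probe was likewise detected on 5, 5 and 0 arrays. Syt5 and Syt6 were faint, were not tested, and were detected on 4, 3 and 5 and on 4, 3 and 3 arrays. Syt5 had means of -4.20, -4.06 and -3.14 over NC1, C1 and C2, highest at C2, and Syt6 of -4.08, -4.35 and -4.31. Of the family members left out of the authors' table, Syt1, Syt2, Syt8, Syt9, Syt14 and Syt15 were well above background on no array.

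**Figure D4:**
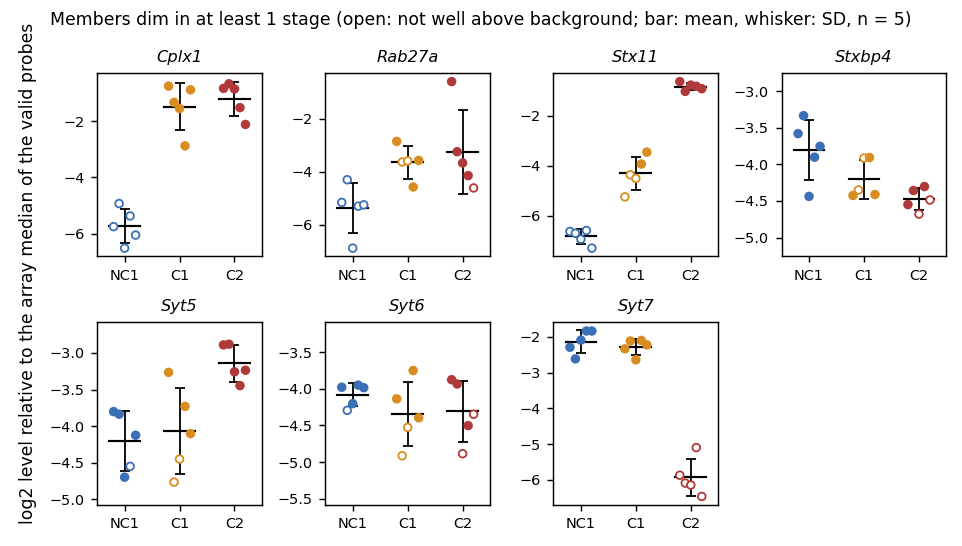
The 7 members named above that were dim in at least 1 stage (vertical axis: log2 level above or below the array's median; horizontal axis: stage). Open points are arrays not well above background, and bars and whiskers are the mean and SD of 5 arrays. Cplx1 is open on all NC1 arrays, Syt7 on all C2 arrays, and Stx11 on all NC1 arrays and 3 C1 arrays.

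For Cplx1, a complexin of synapses, the step lay between NC1 and C1. It read -5.75, -4.93, -6.51, -5.37 and -6.05 at NC1, none well above background, then -0.76, -1.34, -1.56, -2.88 and -0.89 at C1 and -0.84, -0.68, -0.86, -1.53 and -2.12 at C2, all well above. C1 and C2 overlapped, and C1 was at least 9.45-fold above NC1. Cplx2 was high throughout on its brightest probe, with means of 5.26 ± 0.61, 5.94 ± 0.69 and 6.81 ± 0.43 (SD, n = 5). Neither step was called (adjusted p = 0.311 and 0.0301), and C2 over NC1 was, at 1.55 ± 0.33 (SE, adjusted p = 0.000573). The step from C1 to C2 was called with the slide as a block, with the median over all gene probes and with the deposited table, and its adjusted p ran from 0.000889 to 0.109 over the 33 other settings. Another Cplx2 probe, well above background on every array, had means of -1.29, -1.49 and -1.48 and no called change. The remaining Cplx2 probes were higher at C2 than at NC1 by 0.86 (adjusted p = 0.00185) and 1.33 (adjusted p = 0.000161), so the probes disagree. Cplx3 and Cplx4 were well above background on no array.

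Of the disassembly machinery 2 of 4 members rose from C1 to C2, where 25.4% of all valid probes were higher. Napa and Napg, which attach NSF to used SNARE bundles, were higher at C2 than at C1 by 0.32 ± 0.09 (SE, adjusted p = 0.00613) and by 0.63 ± 0.12 (SE, adjusted p = 0.000315), Napg from -1.43 ± 0.19 to -0.80 ± 0.15. Napa was at 3.09, 2.99, 3.03, 3.10 and 2.92 at NC1, at 3.18, 2.97, 2.78, 3.12 and 3.08 at C1 and at 3.34, 3.38, 3.28, 3.36 and 3.37 at C2. Its C2 arrays lay above all C1 arrays by a small margin, and the call was lost under 18 of the 33 other settings. The other, dimmer Napa probe was higher at C2 than at C1 by 0.69 (adjusted p = 4.46e-05). Nsf itself had means of -0.66, -0.78 and -0.37, with C2 arrays that varied (SD 0.76), and Napb of -2.30, -2.21 and -2.20, and neither passed.

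PACSINs bend membranes at endocytic sites and bind dynamin. From C1 to C2, 2 of 3 rose, where 25.4% of all valid probes were higher. Pacsin3, the member of muscle and other tissues, was at 0.95, 0.66, 0.99, 0.69 and 0.92 at NC1, at 1.35, 0.95, 1.36, 1.06 and 1.25 at C1 and at 1.69, 1.67, 1.64, 1.78 and 1.85 at C2. The NC1 and C1 arrays overlapped and the C2 arrays did not overlap with them. Its rise from C1 to C2 was 0.53 ± 0.11 (SE), 1.45-fold (adjusted p = 0.000397), and was 0.38 (adjusted p = 0.284) with spike-in scaling. Pacsin2, found in most tissues, was at 2.61, 2.71, 2.71, 2.75 and 2.53 at NC1, at 2.83, 2.46, 2.87, 2.77 and 2.96 at C1 and at 3.11, 3.20, 3.15, 3.16 and 3.00 at C2, with every C2 array above every C1 array. It rose by 0.35 ± 0.10 (SE, adjusted p = 0.00665), a call lost under 16 of the 33 other settings. Pacsin1, the neuronal member, had means of 1.46, 0.98 and 1.30 and did not pass.

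**Figure D5:**
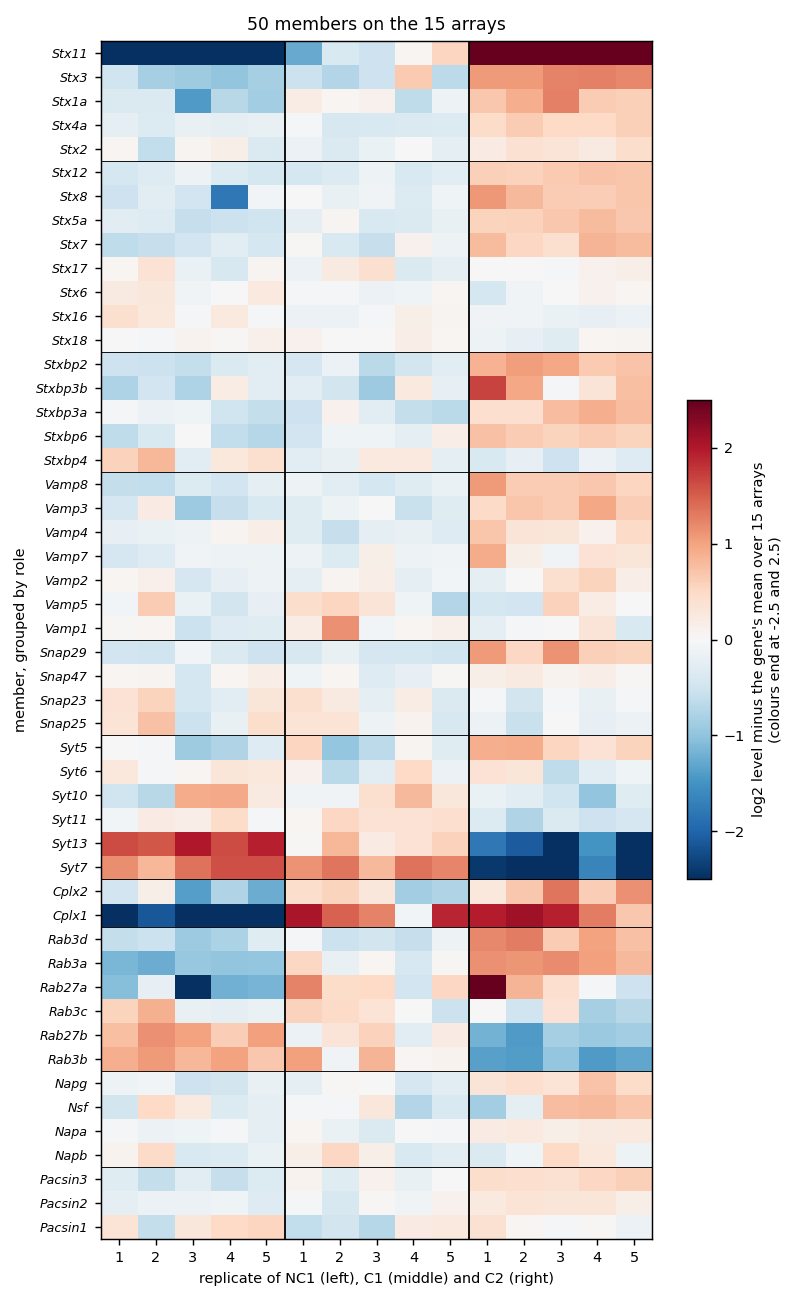
Level of 50 members on each array, as the log2 difference from the gene's own mean over the 15 arrays (colour scale from -2.5, blue, to 2.5, red), with columns for the 5 replicates of NC1, C1 and C2 and rows grouped by role. The rows of Stx3, Stx11 and Stxbp2 turn red at C2, while Syt13, Syt7, Rab27b and Rab3b turn blue.

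The genes that work around these members were taken from 7 lists with 83 genes, of which 54 were tested. From C1 to C2, 17 were higher and 8 lower, with a median change of 0.24, a share near the 47.6% of all valid probes that were called. The counts below stand beside 25.4% of all probes higher and 22.2% lower, and with 5 to 10 tested genes a list they describe the lists and were not tested. The exocyst, the complex that tethers vesicles to the plasma membrane, had 5 of 8 tested subunits higher and none lower, for example Exoc8 by 0.82 and Exoc7 by 0.71. Among other SNAREs 4 of 10 were higher (Vti1b, Gosr1, Use1 and Bet1l) and none lower. Of the other Munc18-type proteins Scfd2 and Vps45 rose and 3 of 5 did not pass. Of the vesicle membrane proteins 0 of 9 were higher and 3 lower (Syngr1, Scamp1 and Scamp2). Endocytic partners of the PACSINs had 3 higher (Bin1 by 1.23, Itsn2 by 0.77 and Picalm by 0.31) and 1 lower, Dnm1. Regulators of Rab3 were mixed: Rab3gap2, Rab3ip and Rabif rose, and Rab3il1 fell by 3.02.

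Of the priming factors and Rab effectors 0 of 8 tested were higher and 3 lower from C1 to C2. Sytl4 (granuphilin), a Rab27 and Rab3 effector on granules, was lower by 2.54 on the log2 scale, Rph3al by 1.92 and Unc13b by 0.57. Sytl2, another Rab27 effector, ran between -1.36 and -0.68 at NC1 and between -2.66 and -2.07 at C1, and was well above background on none of the C2 arrays, so that C1 was at least 5.42-fold above C2. Unc13c, a priming factor, showed the same order, with -1.67 to -0.52 at NC1, -3.48 to -1.97 at C1 and no C2 array above background, and C1 was at least 3.82-fold above C2. Sytl3, an effector of the same family, went the other way: no NC1 array was well above background, C1 ran from -3.39 to -2.32 and C2 from 0.59 to 1.18, at least 46.5-fold above NC1. In C1 against NC1 only Unc13d was called among the 54, where 2.52% of all valid probes were called. Unc13d, the Rab27 effector that primes granules of blood cells, was higher by 2.14 (adjusted p = 0.000676). Its SD was 0.18 over the NC1 arrays and 0.85 over the C1 arrays.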

How the data were processed

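RNA of cumulus cells was hybridised to 1-colour Cy3 Agilent arrays, 15 in all, 5 for each of NC1, C1 and C2. The authors scanned the arrays with Agilent Feature Extraction, whose version is 10.5.1.1 per the labels and 10.7.1.1 per the file headers, and deposited the intensity of each spot after background subtraction. A further table deposited by the authors holds log2 values of the probes that passed their presence filter, and it was used to choose the members and as an alternative scale. Their methods name GeneSpring, presence in 80% of replicates, scaling to the median and Benjamini-Hochberg adjustment. Columns of other samples numbered 0, and no fold changes or p-values of the authors were used.

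Here, unflagged spots of a probe were averaged and log2 intensities were centred, array by array, on the median of valid probes (well above background on at least 4 of 5 arrays in each stage, 17323 probes). A total of 20 missing values among them were left out of the fit. One model over 15 arrays was fitted with limma 3.58.1 in R 4.3.3, two-sided, with Benjamini-Hochberg adjustment over all valid probes at 0.01. In data simulated on the 17323 probes, the fit was checked for the recovery of known changes. Precision is limited by the number of arrays. Replicates are pools of several mice, so p-values measure the spread between pools.

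Stages were taken from the labels. Members and lists were chosen with earlier results of these data known. Values on every array are given for Stx1a and Pacsin3, for members called between NC1 and C1, for the 8 highest and 8 lowest changes among members called between C1 and C2, and for the dim members that were well above background on all arrays of a stage and on at most 1 of another. Probe names came from accessions matched to RefSeq GRCm38.p6 for 26055 probes and from the deposited table for 2770, and 10604 stayed unnamed. Alternatives covered scaling, background, filter, slide and replicate block, variance, threshold, probe choice and each array left out. Normexp (offset 50) used the median signal and background median in place of the mean signal. Counts cover all members, and the values of 2 of them are not reported here.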

Additional observations from a re-analysis of the deposited data

Results flagged for a closer look

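In 8 of the 132 groups of 5 arrays examined, 1 array stood apart from the other 4 of its stage by a gap that was large against the range of the group. Chance sets apart about 1 in 20 groups, and the 8 values lay on 8 different arrays. Stx3 was at 0.10 on C1 replicate 4 against -1.28 to -1.07 on the others, on the array whose expanded-cumulus markers summed to 8.69. Their part in the Stx3 value was not tested. Stx4a was at 3.66 on C1 replicate 1 against 3.29 to 3.34. Vamp1 was at -2.11 on C1 replicate 2 against -3.33 to -3.06. Vamp8 was at 2.07 on C2 replicate 1 against 1.54 to 1.69. Rab3b was at -3.81 on C2 replicate 3 against -4.27 to -4.15. Stx8 was at -2.91 on NC1 replicate 4 against -1.65 to -1.19. Pacsin1 was at 0.66 on NC1 replicate 2 against 1.53 to 1.78, and Snap47 at 0.41 on NC1 replicate 3 against 0.91 to 1.01.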

How the results depend on the processing

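Over 33 other settings, 8 of the 27 members called from C1 to C2 stayed called wherever they could be fitted, as did 18 of the 29 called from NC1 to C2 and 1 of the 2 called from NC1 to C1. Spike-in scaling left 9 members called from C1 to C2 and 1 from NC1 to C1, with median changes of 0.31 and 0.23. The median over all gene probes moved the members' median change to 0.77 from C1 to C2 and to 0.66 from NC1 to C2, and the deposited table gave 0.77 and 0.66. Asking for at least a 2-fold change left 10 and 18 members in those comparisons. Without C1 replicates 3 and 4 together, a setting chosen after seeing the data, 1 member was called from NC1 to C1. The cause of these shifts was not tested. With the mean of all valid probes, Vamp4 changed by -0.20 from NC1 to C2 (adjusted p = 0.196), in place of 0.43. Leaving out each array in turn gave 1 to 3 called members from NC1 to C1, 22 to 27 from C1 to C2, 24 to 29 from NC1 to C2 and 24 to 28 over the 3 stages. The count from NC1 to C1 was 1 without C2 replicate 1, 4 or 5, where Syt13 was no longer a valid probe. The median changes were then 0.03 to 0.10, 0.43 to 0.52 and 0.43 to 0.51. Same-numbered arrays correlated in their deviations at -0.24 to 0.35, and 4 of 15 pairs lay above 0.1. Between NC1 and C1 the correlations were 0.07, 0.35, 0.06, 0.34 and 0.34 for replicates 1 to 5. These values alone cannot tell whether replicate numbers pair the samples. With the replicate block, 3, 25, 28 and 26 members were called in the 3 comparisons and the F-test. The 8 members dim in at least 1 stage were left out of the main tests and entered only alternatives with a looser filter. A bound was given for a dim member only where a stage had no array well above background.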
